A study of Homo sapiens with 6 samples.

Results

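Myeloid cells are built by a small circle of transcription factors, and 10 of these genes were followed here: SPI1, CEBPA, CEBPB, CEBPD, CEBPE, RUNX1, MYB, GFI1, IRF8 and FLI1. They were taken by symbol from the 25420 genes of the deposited tables, with no threshold on their values, and all 10 were found through their Entrez identifiers. The cells were MOLM-13, an established acute myeloid leukaemia line that carries an MLL-AF9 fusion and FLT3 internal tandem repeats, so that both groups share these lesions. The C646 group received 10 µM C646, an inhibitor of the acetyltransferases CBP and p300, for 2 h, and the control group received DMSO for the same time. Both were labelled with 100 µM 4-thiouridine (4sU) in the last 60 min, and 3 libraries per group were sequenced. It is not stated whether the 3 libraries of a group came from separate cultures, and p-values then measure only the spread between these libraries.

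In this scheme PU.1, the product of SPI1, and the C/EBP proteins open and drive the genes of monocytes and granulocytes, RUNX1 and FLI1 act from the stem cell on, MYB keeps progenitors dividing, and GFI1 and IRF8 pull the granulocytic and the monocytic branch apart. Many of them regulate each other and lean on CBP and p300 as coactivators. Messages for such regulators are often short-lived, which lets their levels follow transcription quickly.

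SLAM-seq reads out transcription through 4sU, which cells build into RNA in place of uridine and which is read as C after alkylation. A T > C read is a read on a 3′ untranslated region (3′ UTR) that holds T > C conversions, and in these tables a single conversion was enough. This is looser than the rule of the study, which asked for more than a single conversion per read, and the deposited counts do not separate the reads by their number of conversions. T > C reads are taken here for newly synthesized transcripts on this looser rule, and all reads together for total mRNA. The share of T > C reads among all reads of a gene was taken as its renewal over the labelling. The libraries held between 7252597 and 10225448 reads on 3′ UTRs, of which 8.74% to 8.86% were T > C reads in DMSO and 6.34% to 6.71% in C646. An unlabelled library was not analysed here, so that conversions from sequencing errors remain in each share. The markers fit the label: 8 of 9 monocytic leukaemia genes had 50 or more reads per DMSO library on average, with CD14 at 0 to 1 reads, and their summed level ran from 3217 to 3517 CPM (reads scaled to the library total) in DMSO and from 3428 to 3733 CPM in C646. LYZ alone made up 2816 CPM of this in DMSO on average, and the sum does not show CD33, with 1228 to 1762 reads in DMSO and 1009 to 1042 in C646, or FLT3, with 734 to 1266 and 1358 to 2103 reads. None of the erythroid, lymphoid or epithelial markers averaged 50 reads per DMSO library, with HBB, CD3E and CDH1 at 0 in each library. These are bulk libraries, in which fewer cells of a kind and less RNA per cell cannot be told apart.

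How well a gene reports its conversions depends on the T bases in its 3′ UTR, and the members differed in this. The last 30 bases of 3 of the 3′ UTR entries are printed from GRCh38 (sense strand, 5′ to 3′), because SPI1, GFI1 and IRF8 carry the contrasts described below. Capitals mark T, the only base at which a conversion can be read.
SPI1, chr11:47354858-47354887, minus strand: aaaaacaagTaaagTTaTTcTcaaTccaTc
GFI1, chr1:92474761-92474790, minus strand: TTTTaagTTaaTaaagTaTTaagagTaTTa
IRF8, chr16:85922576-85922605, plus strand: TcTTTaTTaaaaTaaaaTgcTcTTTTTTaa
These windows held 8, 13 and 15 T. Over the whole entry T made up 14.4% of the bases of SPI1, 28.1% of those of GFI1 and 34.6% of those of IRF8. A read of SPI1 covered 19.9 T positions on average in DMSO, against 38.0 for GFI1, 40.9 for IRF8 and a median of 30.9 over the 8607 genes with 50 or more reads per DMSO library on average. Only 9.85% of these genes covered fewer T per read than SPI1. The number of conversions per 100 T positions covered is therefore given beside the share.

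In untreated cells most members were renewed fast. The median T > C share of the 9 members with 50 or more reads per library was 35.7% in DMSO, against 11.6% over the 8607 genes. Of these 9, 8 lay above the median of all genes, 7 above the upper quartile of 19.4% and 3 above the 95th percentile of 42.5%. The members fell into a fast group made of GFI1, CEBPB and CEBPD, a middle group from CEBPA to MYB, and FLI1 and SPI1 at the slow end.

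GFI1, a zinc finger repressor of monocytic genes (3′ UTR entry at chr1:92474761-92476028, minus strand, in exon 7 of 7), had the highest mean share. T > C reads were 57.8%, 55.7% and 53.6% of its reads in the 3 DMSO libraries, a mean of 55.7% ± 2.12 (SD, n = 3), and 98.1% of genes lay below it. CEBPB, the C/EBP protein of inflammatory and emergency responses (chr20:50192072-50192691, plus strand, single exon), had 53.7%, 57.4% and 51.0%. CEBPD, a C/EBP protein induced early in stress and inflammation, had 58.1%, 50.1% and 53.2%. The DMSO ranges of these 3 genes overlapped, so that no order among them can be given. The CEBPB shares rest on 104 to 134 reads per library, with 95% Wilson intervals as wide as 41.5% to 60.4%, and such intervals cover counting error only, since PCR copies of 1 molecule count as separate reads here.

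CEBPA, the C/EBP protein that commits progenitors to the granulocyte and monocyte lineage (chr19:33299934-33301337, minus strand, single exon), followed with 40.7%, 41.0% and 30.8%, and DMSO replicate 3 stood apart from the others. RUNX1, the DNA-binding subunit of core binding factor (chr21:34787801-34792134, minus strand, exon 9 of 9), had 34.6%, 39.2% and 33.4%, within the range of CEBPA. IRF8, the interferon regulatory factor of the monocyte and dendritic cell lineage (chr16:85921283-85922605, plus strand, exon 9 of 9), had 29.4%, 31.1% and 27.6%. MYB, the progenitor factor (chr6:135217981-135219173, plus strand, exon 16 of 16), had 29.9%, 27.8% and 28.8%, and the ranges of IRF8 and MYB overlapped. The whole range of RUNX1 lay above that of IRF8.

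FLI1, an ETS factor of stem cells and megakaryocytes (chr11:128810989-128813267, plus strand, exon 9 of 9), had 16.2%, 14.4% and 15.4%, and 64.1% of genes lay below it. SPI1, the ETS factor PU.1 (chr11:47354858-47355226, minus strand, exon 5 of 5), had the lowest share of the circle, with 7.42%, 7.16% and 6.36%, and 25.9% of genes lay below it. Per 100 T covered, SPI1 had 0.495 ± 0.0759 conversions (SD, n = 3) and GFI1 3.74 ± 0.275, with a median of 0.778 over all genes, and SPI1 then had 30.3% of genes below it. SPI1 thus stayed lowest when its small number of T was taken into account. CEBPE, the late granulocytic C/EBP protein (chr14:23117306-23117486, minus strand, exon 2 of 2), had 43, 76 and 23 reads in the DMSO libraries, too few for a place in this order.

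**Figure D1:**
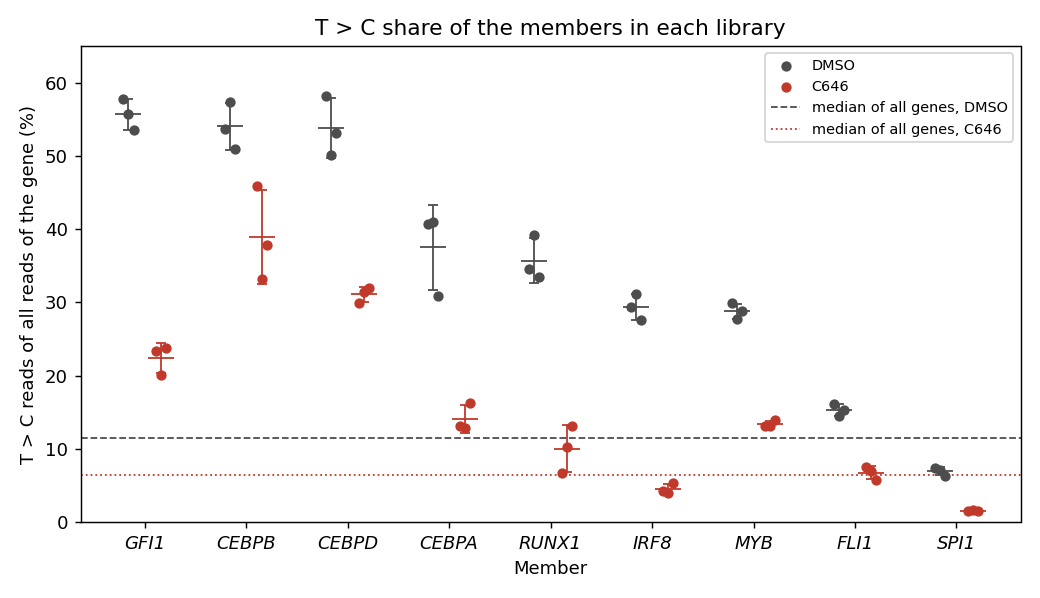
T > C share of 9 members in each library, in percent of all reads of the gene (y axis); points are the 3 libraries per group, horizontal marks the mean and bars the SD, and dashed and dotted lines the median of all genes in DMSO (11.6%) and C646 (6.38%). Every red C646 point lies below every grey DMSO point of the same gene. All C646 points of IRF8 and SPI1, and the FLI1 point of C646 replicate 3 (5.74%), lie below the C646 median of all genes.

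The levels of the members had another order than their renewal. QuantSeq counts about 1 position at the 3′ end of each transcript, so that CPM can be set side by side without dividing by length. Only reads on the listed entries are counted. The GFI1 entry stops 1718 bases before the annotated transcript end, so that its level may be too low. In all reads MYB was highest, with 541 ± 87.2 CPM (SD, n = 3) in DMSO, followed by CEBPA with 373 ± 50.6, SPI1 with 200 ± 41.0, GFI1 with 111 ± 13.4, CEBPD with 99.4 ± 9.74, IRF8 with 89.4 ± 35.2, RUNX1 with 59.7 ± 4.91, FLI1 with 35.8 ± 6.02, CEBPB with 14.4 ± 0.576 and CEBPE with 6.09 ± 3.99 CPM. GFI1 overlapped CEBPD, CEBPD overlapped IRF8 and IRF8 overlapped RUNX1, while the other neighbours did not overlap. MYB was above 97.0% of the 8607 genes and CEBPB above only 20.1%. By the T > C share, the abundant SPI1 message was slowly renewed and the scarce CEBPB message fast. The share was not set against a measured decay rate.

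ATTTA, the core of AU-rich elements that mark many short-lived messages for decay, was counted on the sense strand in the last 300 bases of each entry, with overlapping matches counted. It occurred in GFI1 (1 match), IRF8 (1) and FLI1 (2), and not in SPI1, CEBPA, CEBPB, CEBPD, RUNX1 or MYB. CEBPE has an entry shorter than this window, and the entry of GFI1 stops 1718 bases before the end of the annotated transcript. Thus 3 of 9 members held it, against 49.1% of the 7280 genes with an entry of this length. The longer element TTATTTATT, which contains ATTTA, was in no member entry, against 1.68% of the 7280 genes in the last 300 bases. Over the whole entry the counts were 18 in RUNX1, 9 in FLI1, 6 in MYB, 6 in IRF8, 3 in GFI1, 1 in CEBPA, 1 in CEBPB and 0 in SPI1, CEBPD and CEBPE. Per 1000 bases of the whole entry, the median was 2.37 matches over the 9 members and 1.80 over the 7280 genes, with members from 0 to 5.03. Neither difference from all genes was tested. The windows of 30 bases below, from GRCh38 on the sense strand, show ATTTA in capitals where 2 copies lie close together, with CEBPA as a member with a single copy.
RUNX1, chr21:34791344-34791373, minus strand: tATTTAtgtatcttgatgttcagacATTTA
MYB, chr6:135218446-135218475, plus strand: cATTTAatccagattgtaaatgctcATTTA
IRF8, chr16:85921771-85921800, plus strand: ttaataagATTTAaaaatATTTAgattaaa
CEBPA, chr19:33301053-33301082, minus strand: cggcaactctagtATTTAggataaccttgt
The fast group of GFI1, CEBPB and CEBPD held 3, 1 and 0 matches in all, and the more slowly renewed FLI1 held 9. Their entries differ in length, and per 1000 bases these were 2.37, 1.61, 0 and 3.95. For GFI1 the bases beyond its entry were not counted. A match is a description of these letters and not of binding.

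The study asked which transcripts CBP and p300 sustain, and newly synthesized RNA of most members tested fell within 2 h of C646. T > C reads of 6 of the 9 members tested were called lower and of none higher, with SPI1 reduced most, by 9.33-fold, and GFI1 by 4.06-fold. RUNX1, MYB, IRF8 and CEBPA fell by between 2.37-fold and 2.86-fold. CEBPD and FLI1 did not pass the call, and CEBPB had more T > C reads in C646 than in DMSO. A gene was called where edgeR's quasi-likelihood test over all genes gave a Benjamini-Hochberg adjusted p of at most 0.01 and a log2 fold change of at least 1 in size, with the libraries scaled to all their reads. By this rule 33.8% of the 7760 genes tested were called lower and 2.90% higher, and the median log2 fold change was −1.27 for the members and −0.84 for all genes. The falls of these members are thus to be read against a broad fall.

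T > C reads of SPI1 numbered 118, 126 and 87 under DMSO and 13, 14 and 11 under C646. Scaled, these were 12.4, 17.6 and 11.8 CPM under DMSO and 1.70, 1.71 and 1.09 CPM under C646. The groups lay far apart, and the log2 fold change was −3.22 ± 0.32 (SE, edgeR adjusted p = 1.55e-09), with 1.64% of the genes tested below it.

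GFI1 had 526, 462 and 481 T > C reads in DMSO and 116, 107 and 174 in C646, or 61.7 ± 5.39 CPM against 15.2 ± 2.08 CPM. Its log2 fold change was −2.02 ± 0.18 (SE, edgeR adjusted p = 1.46e-10), and no C646 library came near a DMSO library.

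RUNX1 had 22.6, 22.5 and 18.8 CPM of T > C reads in DMSO and 4.97, 7.94 and 9.22 CPM in C646, a log2 fold change of −1.52 ± 0.23 (SE, edgeR adjusted p = 3.51e-06). Nearly all of its reads lay on the entry named above. A second entry in the gene (chr21:34821277-34821667, minus strand) held 11 to 30 reads per library, and no member had a second entry with 50 reads, so that use of alternative 3′ UTRs could not be compared.

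MYB had 1407, 1273 and 1028 T > C reads in DMSO and 457, 497 and 553 in C646, or 155 ± 20.3 CPM against 58.4 ± 3.18 CPM, and a log2 fold change of −1.41 ± 0.15 (SE, edgeR adjusted p = 4.49e-09). CEBPA had 130, 156 and 129 CPM in DMSO and 46.0, 52.1 and 76.6 CPM in C646, a log2 fold change of −1.24 ± 0.17 (SE, edgeR adjusted p = 3.86e-07). For both genes the highest C646 library was well under the lowest DMSO library.

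IRF8 had 27.2, 16.4 and 34.0 CPM of T > C reads in DMSO and 9.16, 8.68 and 14.2 CPM in C646. The second DMSO library was low and came close to the third C646 library, yet the groups did not overlap, and the log2 fold change was −1.27 ± 0.24 (SE, edgeR adjusted p = 6.6e-05). With a library left out it ran from −1.54 (without C646 replicate 3) to −1.03 (without DMSO replicate 3, edgeR adjusted p = 0.00288), just past the fold threshold.

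CEBPD had 51.4, 51.3 and 57.0 CPM in DMSO and 26.0, 28.6 and 29.9 CPM in C646. Its log2 fold change of −0.92 ± 0.16 had an edgeR adjusted p of 3.26e-05 but stayed short of the fold threshold, close to the median of all genes. FLI1 had 5.07, 6.15 and 5.14 CPM in DMSO and 3.27, 4.03 and 4.16 CPM in C646, and its log2 fold change of −0.50 ± 0.33 (SE) did not pass the test (edgeR adjusted p = 0.186), although the groups did not overlap.

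CEBPB went the other way. It had 7.60, 8.67 and 7.17 CPM of T > C reads in DMSO and 14.5, 10.4 and 15.2 CPM in C646, each C646 library above each DMSO library. The log2 fold change of 0.78 ± 0.24 had an edgeR adjusted p of 0.0072 and was under the fold threshold, with 94.7% of the genes tested below it. CEBPE had 2, 13 and 4 T > C reads in DMSO and 0, 0 and 14 in C646, and was not tested. Of the 9 members tested, 8 had each C646 library below each DMSO library in CPM, as had 56.6% of all genes tested, and CEBPB had the reverse, as had 6.29%.

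Which members passed depended on the scale, since another scale shifts all genes together. Where the libraries were scaled to their T > C reads instead (TMM), which centres the median of all genes at −0.05, SPI1 (−2.43) and GFI1 (−1.23) were still called lower and CEBPB (1.56) was called higher. RUNX1 (−0.74, edgeR adjusted p = 0.013), IRF8 (−0.49, 0.116) and CEBPA (−0.46, 0.025) no longer passed either threshold. MYB (−0.61, edgeR adjusted p = 0.00175) passed the threshold on p and missed only that on the fold. CEBPD was at −0.13 and FLI1 at 0.28, with the sign set by the shift and no call on either scale (edgeR adjusted p = 0.536 for FLI1 here). On this scale 667 of 7801 genes were called lower and 672 higher. SPI1 and GFI1 thus fell beyond the broad fall of the newly synthesized transcripts by both thresholds, and MYB by the adjusted p alone.

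**Figure D2:**
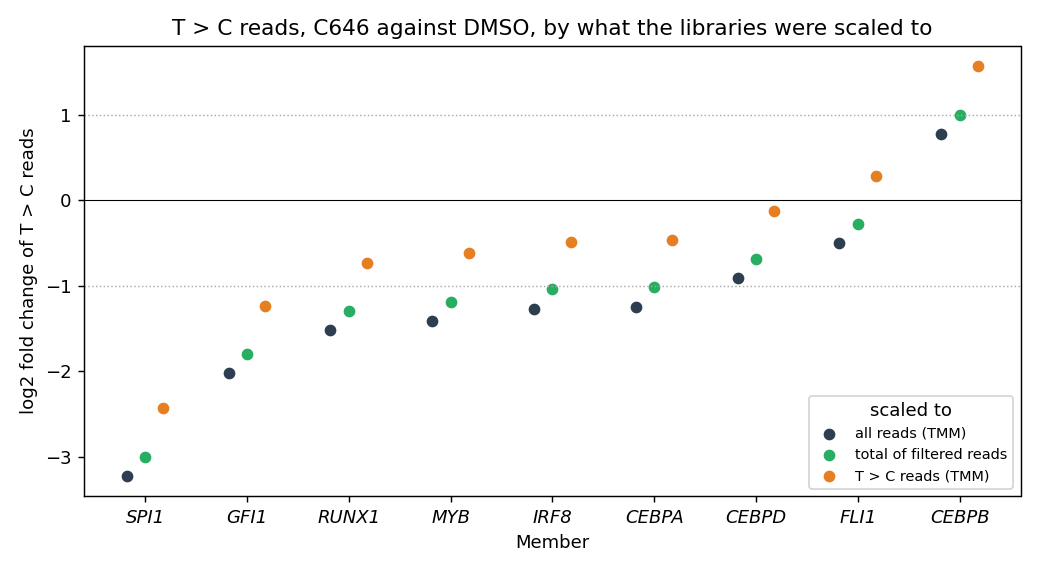
Log2 fold change of T > C reads, C646 against DMSO (y axis), of 9 members (x axis) under 3 ways of scaling the libraries; dotted lines mark the fold threshold of 1. All points of a gene move up together when the libraries are scaled to their T > C reads; SPI1 and GFI1 stay below −1, FLI1 crosses 0 (−0.50 to 0.28) and CEBPB passes 1 (1.56).

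The share of T > C reads needs no scaling between libraries, and it fell in each of the 9 members. The median share of these members was 35.7% in DMSO and 13.4% in C646, against 11.6% and 6.38% over all genes. In all 9 members the C646 libraries were below each DMSO library, as for 64.5% of the genes tested. The model of the T > C odds, which compares T > C with other reads within each library, called 8 of 9 members lower and none higher at the same thresholds, against 38.2% and 0.786% of the genes tested, with a median log2 change of −1.87 for the members and −1.004 for all genes. CEBPB was the member not called (−0.89 ± 0.36, edgeR adjusted p = 0.0372).

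IRF8 showed the largest fall of the T > C odds among the members. Its share was 4.33%, 3.97% and 5.31% in the C646 libraries, a fall by 24.9 percentage points from the 29.4% ± 1.74 (SD, n = 3) of DMSO, and the log2 change of the odds was −3.11 ± 0.20 (SE, edgeR adjusted p = 2.72e-11), with 1.51% of genes below it. RUNX1 went to 6.70%, 10.3% and 13.1%, with a log2 change of the odds of −2.32 ± 0.28 (SE, edgeR adjusted p = 5.2e-07). SPI1 went to 1.54%, 1.66% and 1.56% (log2 change of the odds −2.20 ± 0.27, edgeR adjusted p = 4.67e-07). The 5th percentile of all genes in C646 was 1.22%, so that SPI1 came near the lowest shares seen in these libraries, where errors weigh most.

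GFI1 fell by 33.3 percentage points to 22.4% ± 2.03 (SD, n = 3), the largest fall in points, and at this level was still above 91.9% of all genes in C646. CEBPA reached 14.1% ± 1.89, CEBPD 31.1% ± 1.07, MYB 13.4% ± 0.439 and FLI1 6.76% ± 0.910, differences of −23.4, −22.7, −15.4 and −8.57 points. CEBPB differed by −15.1 points, with 45.9%, 33.2% and 37.9% in C646. In conversions per 100 T covered, the groups of CEBPB overlapped (3.61 ± 0.406 in DMSO, 2.39 ± 0.673 in C646), while the other 8 members had each C646 library below each DMSO library, as had 65.5% of the genes tested. For each share the exact permutation test gave p = 0.1 (two-sided, 9 members tested), the smallest p that 3 libraries against 3 allow, so that this test cannot pass 0.05.

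Total mRNA of the members moved in both directions. In all reads SPI1 was called lower, by 2.12-fold, IRF8 was called higher, by 2.60-fold, and CEBPB was called higher, by 2.38-fold. The other 7 members were not called. Over the 10851 genes tested, 2.00% were called lower and 5.72% higher, and the median log2 fold change was −0.02.

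SPI1 had 168, 246 and 185 CPM of all reads in DMSO and 110, 103 and 70.0 CPM in C646, and its log2 fold change was −1.08 ± 0.18 (SE, edgeR adjusted p = 0.000764). It was −0.90 without C646 replicate 3 (edgeR adjusted p = 0.000887) and −0.91 without DMSO replicate 2 (edgeR adjusted p = 0.00409), which is under the fold threshold. With the libraries scaled to all their filtered reads, those outside the 3′ UTRs included, it was −0.87. The direction was the same throughout. Its reads without a conversion fell as well, from 186 ± 38.0 CPM to 92.8 ± 21.1 CPM.

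IRF8 had 92.7, 52.6 and 123 CPM in DMSO and 212, 219 and 267 CPM in C646, with a log2 fold change of 1.38 ± 0.23 (SE, edgeR adjusted p = 0.000629). Every C646 library stood above the highest DMSO library, and without the low second DMSO library the log2 fold change was 1.11. Its reads without a conversion rose from 63.5 ± 26.4 CPM to 222 ± 27.02 CPM while its T > C reads fell. Such a pair of calls, lower in T > C reads and higher in all reads, was met by 4 of the 7760 genes tested in both (0.0515%). The other three, AKT1, PDCD2L and PRC1, are named after their values were seen.

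CEBPB had 14.1, 15.1 and 14.1 CPM in DMSO and 31.7, 31.3 and 40.0 CPM in C646, and a log2 fold change of 1.25 ± 0.18 (SE, edgeR adjusted p = 0.000216). The values rest on 104 to 134 reads per DMSO library and 242 to 404 per C646 library.

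GFI1 had 96.0, 116 and 122 CPM in DMSO and 64.9, 65.2 and 72.7 CPM in C646. The groups did not overlap, and the log2 fold change of −0.72 ± 0.14 had an edgeR adjusted p of 0.00186 but was under the fold threshold. Its reads without a conversion overlapped between groups (49.5 ± 8.13 CPM and 52.5 ± 2.90 CPM).

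CEBPA (log2 fold change 0.14, edgeR adjusted p = 0.514), CEBPD (−0.13, 0.472), RUNX1 (0.31, 0.101) and MYB (−0.31, 0.116) did not pass the test in total level, while 3 of these 4 genes were called lower in T > C reads. FLI1 had 31.3, 42.7 and 33.4 CPM in DMSO and 43.7, 57.2 and 72.5 CPM in C646, a log2 fold change of 0.70 ± 0.19 (SE, edgeR adjusted p = 0.0135). CEBPE had 43, 76 and 23 reads in DMSO and 7, 10 and 26 in C646, a log2 fold change of −1.90 ± 0.51 (SE, edgeR adjusted p = 0.0121). CEBPE was called lower without C646 replicate 3 (−2.47, edgeR adjusted p = 0.00406) and without DMSO replicate 3 (−2.21, edgeR adjusted p = 0.00771), while without DMSO replicate 2, its library with the most reads, the log2 fold change was −1.25 (edgeR adjusted p = 0.115). Reads without a conversion were higher in each C646 library than in each DMSO library for 6 members (29.1% of all genes) and lower for 2 (17.9%), SPI1 and CEBPE. In CPM of all reads 4 members had each C646 library below each DMSO library, as had 24.0% of all genes, and 4 had the reverse, as had 23.6%.

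**Figure D3:**
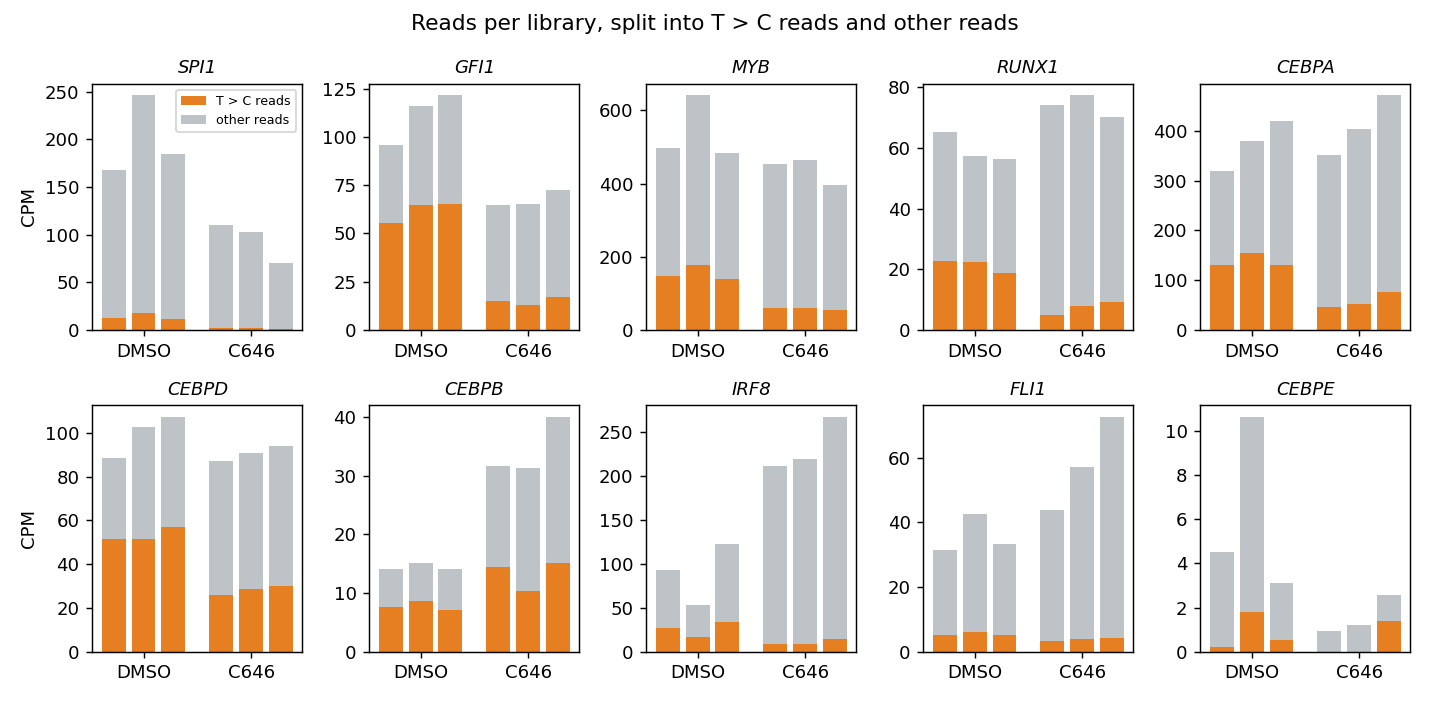
Reads of the 10 members in CPM (y axis, own scale per gene, from 0) in the 3 DMSO and the 3 C646 libraries; orange is the T > C part and grey the other reads of each bar. In SPI1 both parts are smaller in C646, in GFI1 the orange part shrinks over a grey part that overlaps between groups, and in IRF8 the grey part grows from 63.5 to 222 CPM while the orange part shrinks.

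Set side by side, newly synthesized and total RNA gave several patterns. SPI1 was called lower on both. GFI1, MYB, CEBPA and RUNX1 were called lower in newly synthesized RNA and not called in total RNA, where GFI1 was at −0.72 and the other three within 0.31 of 0 on the log2 scale. CEBPD was called in neither (−0.92 and −0.13), IRF8 was lower in the one and higher in the other, FLI1 had values of −0.50 and 0.70 that were called in neither, and CEBPB had higher values on both. T > C reads are a part of all reads, so that the axes are not independent.

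**Figure D4:**
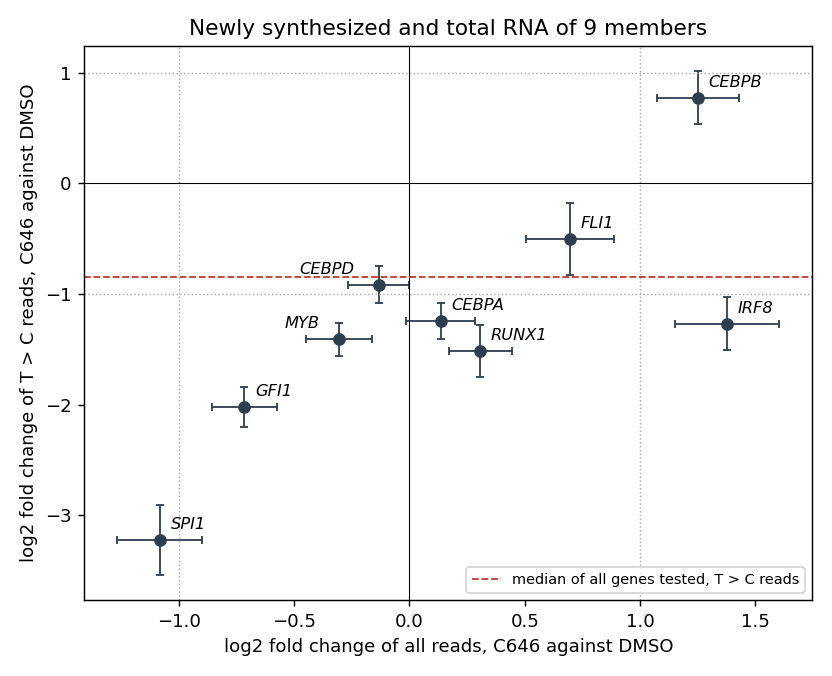
Log2 fold change of all reads (x axis) and of T > C reads (y axis), C646 against DMSO, for 9 members; bars are standard errors of the edgeR fit, dotted lines the fold threshold of 1 and the dashed line the median of all genes in T > C reads (−0.84). SPI1 lies at the lower left (−1.08, −3.22), IRF8 at the lower right (1.38, −1.27) and CEBPB at the upper right (1.25, 0.78).

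The same question was put to 3 lists of genes around the members, counted beside all genes tested. Of 44 further haematopoietic transcription factors, 30 had enough T > C reads to be tested, and 15 were called lower and none higher, against 33.8% and 2.90% of all genes, with a median log2 fold change of −1.18. The largest falls were in NFE2, the erythroid and megakaryocytic bZIP factor (−4.36 ± 0.38, edgeR adjusted p = 1.12e-10), LYL1, a partner of LMO2 in progenitors (−4.18 ± 0.44, 5.99e-09), and IRF1, the interferon-responsive activator (−3.34 ± 0.28, 6.68e-11). NFE2 went from 11.4 ± 0.348 CPM of T > C reads to 0.535 ± 0.0540 CPM (SD, n = 3). These 3 genes were also those of the list called lower in all reads (−1.99, −1.35 and −1.75), and 4 of the 35 tested, ELF1, GABPA, IRF2 and LDB1, were called higher in all reads, against 2.00% and 5.72% of all genes. The last 4 are named after their values were seen.

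Of 17 proteins that bind or regulate the members, 16 were tested and 2 were called lower in T > C reads and none higher, against 33.8% and 2.90% of all genes, with a median of −0.66 against −0.84. They were SMARCA4, the ATPase of the BAF remodelling complex (−2.02 ± 0.36, edgeR adjusted p = 2.91e-05), and TRIB1, which sends C/EBPα to the proteasome (−1.07 ± 0.22, 0.00016). CBFB, the partner of RUNX1, had a log2 fold change of −0.30 (edgeR adjusted p = 0.265). In all reads none of the 16 was called lower and 2 were called higher, against 2.00% and 5.72% of all genes. These were DDIT3 (1.34), a C/EBP-related stress factor, and KDM1A (1.03), the demethylase that works with GFI1. CBFB, DDIT3 and KDM1A are named after their values were seen.

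Of 26 textbook target genes of the members, only 12 had enough T > C reads to be tested, and genes such as CSF1R, MPO, ELANE and CD34 were not among them. By the same rule 6 were called lower and 1 higher, against 33.8% and 2.90% of all genes, with a median of −0.97 against −0.84. The largest falls were in MYC, the growth regulator driven by MYB (−2.47 ± 0.19, edgeR adjusted p = 5.22e-12), CCND3, a D-type cyclin (−2.32 ± 0.22, 1.03e-09), and CD33, a myeloid surface lectin, which went from 14.3 ± 2.81 to 3.59 ± 1.58 CPM (SD, n = 3, edgeR adjusted p = 1.63e-06). CTSG, the granule protease cathepsin G, was the gene called higher (1.47 ± 0.20, edgeR adjusted p = 4.36e-07) and is named after its value was seen. In all reads MYC was called lower (−1.72) and TLR4, named after its value was seen, higher (1.57), which is 1 of 18 in each direction, against 2.00% and 5.72% of all genes.

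Among the 5607 other genes with 200 or more reads per library on average, those whose T > C share ran closest to SPI1 over the 6 libraries, by distance of the log2 odds, were BEX1 (distance 0.46, shares of 7.48% in DMSO and 1.59% in C646) and TOMM6 (0.50, 6.17% and 1.86%). For CEBPA they were CEP350 (0.30, 35.7% and 13.8%) and PDP2 (0.45, 37.8% and 14.6%). For MYB they were NFX1 (0.24, 30.1% and 12.6%) and TP53RK (0.29, 28.8% and 14.7%).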

How the data were processed

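SLAM-seq 3′ end libraries of MOLM-13 cells (3 DMSO, 3 C646) were analysed. Alignment to GRCh38 was done by the authors with slamdunk 0.4.1 at default settings, and their notes name CASAVA 1.9. The authors deposited raw counts of all reads, T > C reads, conversions and multimapped reads for 58136 3′ UTR entries (Ensembl 84 and RefSeq). T > C reads include those with a single conversion. The deposited coverage over T positions is a signal without normalization. The deposited CPM column was used only to obtain the total of filtered reads per library.

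Counts were summed over the entries of each gene, and symbols were matched to 25310 of 25420 genes. Tests used edgeR 4.0.16 (filterByExpr, glmQLFit, glmQLFTest) in R 4.3.3 with Benjamini-Hochberg adjustment over all genes tested. T > C reads were scaled to the TMM-scaled totals of all reads, and CPM here use the same totals. For the T > C odds, the counts of both kinds of read were modelled with 1 level per library, 1 for the kind of read and its interaction with treatment, for the genes of the T > C test. Standard errors are the log2 fold change over the root of the quasi-likelihood F. The fits were also run on simulated counts with a fixed dispersion shared by all genes. This need not match the spread between these libraries, so that the calls draw no support from it. At most 0.801% of the reads on the main entry of a member were multimapped, no entry of another gene overlapped a member entry, and annotation was that of GENCODE 44. Pairs of libraries of 1 group differed by 7.87 to 27.7 times counting noise, and no library was left out. No comparison columns of the authors were used.

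The members and lists were chosen with earlier results of these data known. Named were all members, the 3 called genes of each list with the largest change in T > C reads, and the 2 genes nearest in T > C share to SPI1, CEBPA and MYB. Further genes are marked in the text as named after their values were seen, apart from cell type markers and genes named as not tested. The alternatives were DESeq2 1.42.0 size factors and Wald tests, plain totals, TMM on T > C reads, no filter, the entry with the most reads, an adjusted p of 0.05 with no fold threshold, the replicate block, each library left out, conversions per T, and, chosen after seeing the data, the total of filtered reads. Summaries used Python 3.11.15, pandas 2.3.3, numpy 2.4.6, scipy 1.17.1 and matplotlib 3.10.9.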

Additional observations from a re-analysis of the deposited data

How the results depend on the processing

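Scaling was the choice that changed most. With TMM on the T > C reads, or with DESeq2 and size factors from the T > C reads, 2 members (SPI1 and GFI1) rather than 6 were called lower in T > C reads and 1 (CEBPB) rather than 0 higher, and FLI1 reversed (0.28 and 0.34). Over all genes, TMM on the T > C reads called 667 lower and 672 higher of 7801. DESeq2 with these size factors called 544 lower and 683 higher of 7760. An adjusted p of at most 0.05 with no fold threshold gave 7 members lower and 1 higher in T > C reads, 3 lower and 3 higher in all reads, and 9 lower and 0 higher in the odds. The share of all genes passing this looser rule was not computed, so that these counts cannot be set beside it. Of all genes tested, 83.3% had a log2 fold change below 0 in T > C reads, 51.3% in all reads and 92.0% in the odds. The other alternatives for T > C reads called 6 members lower, each library left out in turn included (6 to 6 lower, 0 to 0 higher). In all reads, 1 member was called lower, against 2 (SPI1 and CEBPE) with DESeq2, with no filter and with the replicate block, and 0 with the total of all filtered reads, a scale that moved the median of all genes to 0.20 and reversed CEBPD (0.091). Leaving out libraries gave 0 to 2 lower and 2 to 2 higher. The odds called 8 members lower and 0 higher with each library left out. The median baseline share ran from 34.0% to 36.9% and the median difference from −23.1 to −20.5 points with a library left out. In conversions per 100 T covered these medians were 2.67 and −1.72. ATTTA occurred 1.48 times per 1000 bases in the last 300 bases of the members and 3.34 times over their whole entries. Deviations of same-numbered libraries correlated by 0.03 to 0.07 in T > C reads and −0.001 to 0.23 in all reads. Differently numbered libraries correlated by −0.05 to 0.02 and by −0.22 to 0.15. The same-numbered values were thus the highest in T > C reads, though small. Neither the labels nor the study state that the numbers pair the libraries, and the main fits did not use them as pairs. The replicate block called 6 members lower in T > C reads and 8 in the odds. The cause of these changes was not tested. Depth limits CEBPE (142 reads in DMSO, 43 in C646), and in T > C reads FLI1 (25 to 48 per library) and SPI1 in C646 (11 to 14).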
